A study of Bos taurus with 36 samples.

Results

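KIT, ITGA2, ALDH1A3, SOX4, SOX9, FOXQ1, ELF3 and ELF5 are 8 genes that regulate or mark luminal cells of the mammary epithelium. Their members on the array were all probe sets whose only gene symbol in the array annotation was one of these 8, which gave 9 of 24128 probe sets, for 5 of the 8 genes. KIT had 4 probe sets, numbered here from the highest mean level to the lowest: 1 (Bt.27675.1.A1_at), 2 (Bt.12804.1.S1_at), 3 (Bt.26445.1.A1_at) and 4 (Bt.12804.1.A1_at). ITGA2 had 2, numbered 1 (Bt.12761.1.A1_at) and 2 (Bt.12761.1.S1_at), and SOX4 (Bt.3363.1.S1_at), ELF3 (Bt.3406.1.S1_at) and ELF5 (Bt.24887.1.S1_at) had 1 each. No annotated probe set was found for ALDH1A3, SOX9 or FOXQ1. For these 3 genes and for SOX4, the study names another 4 probe sets among the genes it selected on these same samples, so their values are given below as a description with no test. A probe set is the group of short probes on the array that together report 1 transcript.

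The luminal layer of the mammary epithelium holds cells that secrete milk, cells that sense hormones, and less differentiated cells that include progenitors and line the ducts. In mouse and human mammary glands, the receptor KIT and the aldehyde dehydrogenase ALDH1A3 mark luminal progenitors, and SOX9 is needed to keep progenitor states. ELF5 is the transcription factor that drives progenitors towards the alveolar, milk-secreting fate and keeps secretory genes active during lactation.

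The study asked which mammary genes follow the response of milk yield to milking frequency in early lactation. All 6 groups came from the same 6 multiparous Holstein cows, whose right udder side was milked 4 times a day (4×) and whose left side was milked 2 times a day (2×) on days 1 to 21 of lactation, after which both sides were milked 2×. Each cow gave a biopsy from the 4× and from the 2× side on days 21, 23 and 40, which made 36 biopsies on 36 GeneChip Bovine Genome Arrays and 6 arrays in each group. The groups were the 4× and the 2× glands of day 21, taken at the end of the treatment, and those of day 23 and day 40, when the 4× glands had returned to 2×. Glands of day 23 and 40 are still called 4× and 2× after their earlier treatment. The biopsies of days 21 and 40 came from the rear of the udder and those of day 23 from the fore glands, so gland position and day cannot be told apart between day 21 and day 23. Left and right were never exchanged between cows, so side and treatment cannot be told apart either. The biopsies were whole tissue, in which fewer cells of a type and less RNA per cell cannot be told apart.

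Levels are log2 signals, and a difference is always 4× minus 2×, taken within a cow and within a day, so a negative value means a lower level in the 4× gland. Differences were tested with limma over 24016 probe sets. No member passed an adjusted p of 0.05 in any comparison, so counts are given at the unadjusted p of 0.05 that the study used, beside the share of all probe sets that met it. The number of arrays limits the precision. Array medians lay between 6.04 and 6.15. Alveolar secretory genes such as the caseins marked all biopsies as lactating tissue: over 14 measured genes of that list, the mean level lay between 12.41 and 12.51 in the 4× glands of day 21 and between 12.15 and 12.55 in the 2× glands. The array of the 2× gland of cow 1 on day 21 stood apart. Its median correlation with the other arrays of its group was 0.951, against 0.980 to 0.991 for the other 35 arrays. The main tested results that rest on it are given with and without cow 1.

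On day 21, KIT, ITGA2 and ELF3 had lower levels in the 4× glands, with differences of −0.56 to −0.81 for the brightest probe set of each gene, and ELF5 had a value 1.09-fold higher that did not pass. At an unadjusted p under 0.05, 4 of the 9 members were lower in the 4× glands and 0 were higher, where 7.91% of all probe sets were lower and 8.02% were higher. These 4 were 2 probe sets of KIT and 1 each of ITGA2 and ELF3, and KIT probe set 3 is among those the study selected on these samples. The study also lists ITGA2 and ELF3 among its genes that differed on day 21, so their calls are not independent evidence either. The difference was negative in 8 of 9 probe sets, and their median was −0.24, against 0.02 over all probe sets. The smallest adjusted p among the members was 0.180, and the smallest over the array was 0.121. When the day 21 pair of cow 1 was left out, 2 of 9 were lower (ELF3 and ITGA2), where 2.65% of all probe sets were.

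KIT, the receptor for stem cell factor, was brightest with its probe set 1. Its level was lowest at 6.85, with a median of 7.20 and a highest value of 7.61, in the 4× glands of day 21, against 7.21, 7.53 and 9.75 in the 2× glands. The highest value was that of cow 1, and the other 2× glands lay between 7.21 and 7.67, within reach of the 4× glands. The difference was −0.61 (SE 0.22, 95% interval −1.06 to −0.15), a level 1.52-fold lower in the 4× gland, with a negative value in 5 of 6 cows (limma, adjusted p = 0.199). Cow 1 had −2.45 and the other cows had values between −0.47 and 0.0019. Without cow 1 on all days the difference was −0.24 and still met the unadjusted threshold, and with only its day 21 pair left out it was −0.24 and did not.

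The other 3 KIT probe sets gave unequal values. Probe set 3, a dim one with a mean level of 4.18, had levels of 3.49, 3.77 and 4.35 (lowest, median and highest) in the 4× glands of day 21, against 3.94, 4.28 and 7.22 in the 2× glands. The difference was −0.87 (SE 0.31; limma, adjusted p = 0.196), again negative in 5 of 6 cows, and −0.40 without cow 1. Both of these KIT probe sets thus had their highest 2× value in cow 1, with the other cows closer together. Probe set 2 had a difference of −0.24 (SE 0.13; limma, adjusted p = 0.355), and −0.08 without cow 1. Probe set 4, of the same transcript cluster as probe set 2, had a mean level of only 3.69 and a difference of −0.013.

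ITGA2, the alpha chain of a collagen-binding integrin, had its higher mean with probe set 1, at 3.96, a level near the background of the arrays. In the 4× glands of day 21 its level was lowest at 3.28, with a median of 3.66 and a highest value of 4.36, against 3.63, 4.21 and 5.97 in the 2× glands. Cows 1, 3 and 6 were the high ones among the 2× glands, at 5.97, 5.45 and 4.54, and the ranges overlapped. The difference was −0.81 (SE 0.22, 95% interval −1.27 to −0.35), negative in 5 of 6 cows (limma, adjusted p = 0.180), and −0.55 without cow 1. The other ITGA2 probe set, of the same transcript cluster, had a difference of −0.16 (SE 0.12; limma, adjusted p = 0.514).

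ELF3, an epithelium-specific transcription factor of the ETS family, was the member with the smallest p on day 21. Its level in the 4× glands was lowest at 6.25, with a median of 6.62 and a highest value of 7.03, against 6.39, 6.96 and 8.22 in the 2× glands. Cows 1 and 3 had the high 2× values, 8.22 and 7.92, and the other 4 cows lay between 6.39 and 6.97. The difference was −0.56 (SE 0.14, 95% interval −0.85 to −0.27), or 1.47-fold lower in the 4× gland. It was negative in 6 of 6 cows, a pattern that 2.42% of all probe sets shared (limma, adjusted p = 0.180). Without cow 1 it was −0.37 and still met the unadjusted threshold, also with only the day 21 pair of that cow left out.

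SOX4, a transcription factor of epithelial progenitors, gave no clear difference with its annotated probe set. The levels were 6.67, 6.89 and 7.23 (lowest, median and highest) in the 4× glands of day 21, against 6.66, 6.89 and 7.70 in the 2× glands. The difference of −0.16 (SE 0.12, 95% interval −0.41 to 0.09; limma, adjusted p = 0.535) was negative in 4 of 6 cows. Cows 3 and 1 had the highest 2× values, 7.70 and 7.66.

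ELF5 had the opposite sign. Its level was lowest at 13.86, with a median of 13.95 and a highest value of 14.03, in the 4× glands of day 21, against 13.57, 13.86 and 13.92 in the 2× glands. The groups overlapped, and cow 1 held both the highest 4× and the lowest 2× value. The difference was 0.12 (SE 0.06, 95% interval −0.0042 to 0.25), a level 1.09-fold higher in the 4× gland, and was positive in 6 of 6 cows, where 3.62% of all probe sets were. It did not pass the unadjusted threshold (limma, adjusted p = 0.330), and without cow 1 it was 0.055. The levels lay near the upper end of the scale of the arrays.

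**Figure D1:**
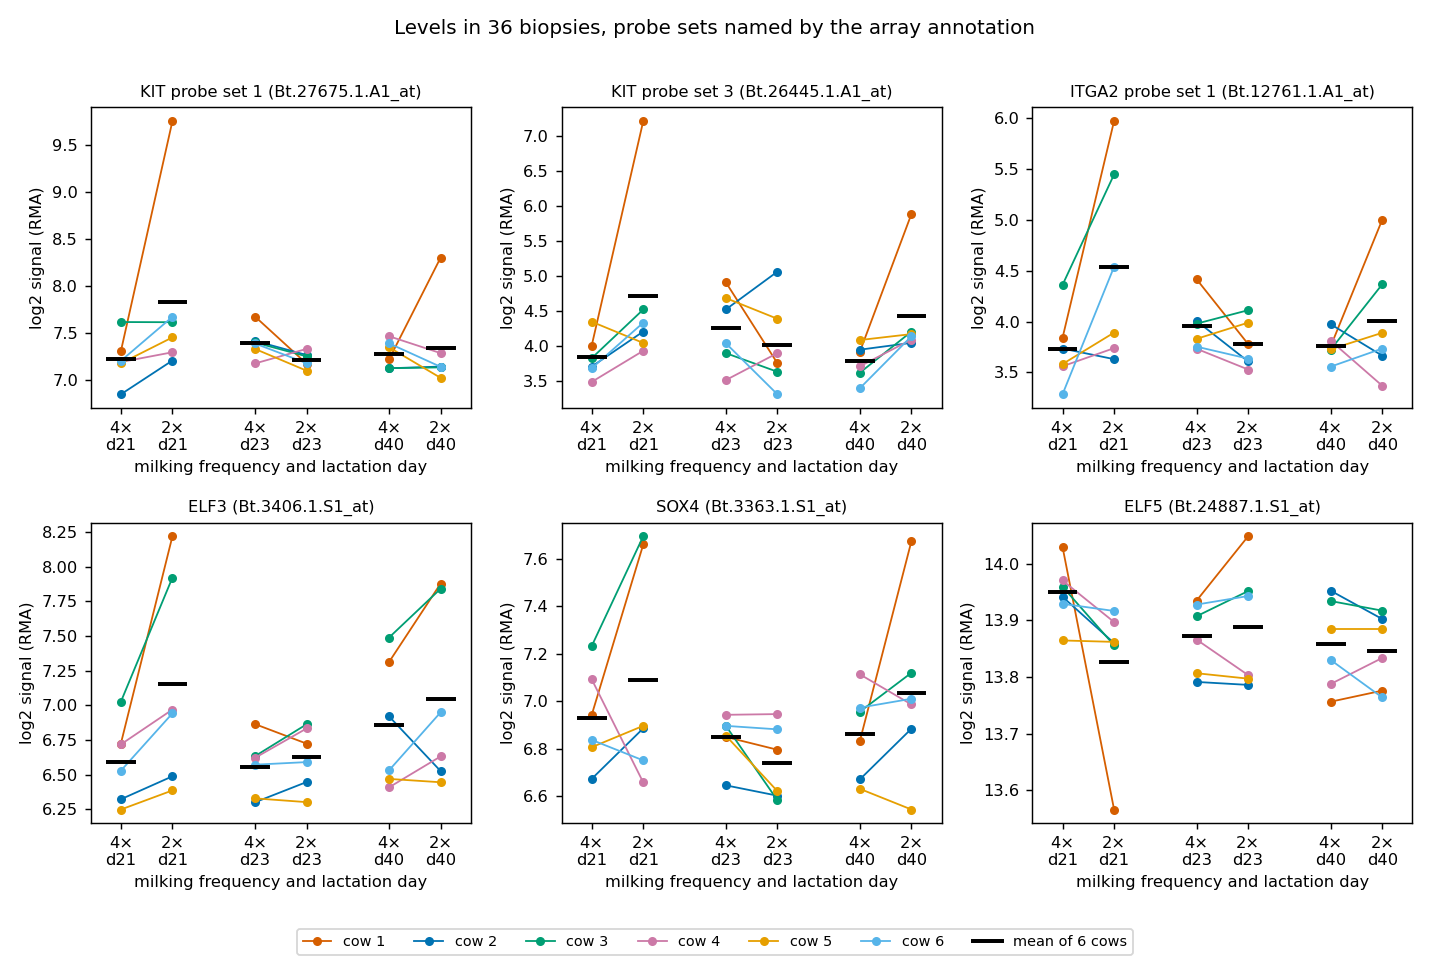
Levels of KIT (both probe sets at an unadjusted p under 0.05), ITGA2, ELF3, SOX4 and ELF5 in 36 biopsies. The vertical axis is the log2 signal, the horizontal axis gives milking frequency (4× left of 2×) and day, points joined by a line are the glands of 1 cow, and black bars are means of 6 cows. In the 2× glands of day 21 cow 1 had the highest KIT level, 9.75, and the lowest ELF5 level, 13.57.

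The probe sets that the study names for SOX4, SOX9, FOXQ1 and ALDH1A3 were selected on these samples, so their direction on day 21 is not independent evidence. FOXQ1, a forkhead transcription factor of epithelia, had levels of 4.87, 5.08 and 5.72 (lowest, median and highest) in the 4× glands of day 21, against 5.36, 5.71 and 9.47 in the 2× glands. Cows 1 and 3 stood out at 9.47 and 8.68 among the 2× glands, and the others lay between 5.36 and 5.86. The mean difference was −1.50, a level 2.82-fold lower in the 4× gland, and negative in 6 of 6 cows. This mean and those of the SOX4 probe set of the study and of ALDH1A3 below include cow 1 and are not given without it.

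SOX9 had levels of 7.78, 7.89 and 8.56 in the 4× glands of day 21, against 7.87, 8.35 and 11.41 in the 2× glands, with a mean difference of −0.85, and −0.45 without cow 1. The SOX4 probe set of the study had 7.65, 7.86 and 8.39, against 7.73, 8.25 and 10.84, with a mean difference of −0.92. ALDH1A3, which makes retinoic acid from retinaldehyde, had 3.76, 3.98 and 4.70, against 3.74, 4.27 and 7.36, with a mean difference of −0.93. In each of these the 2× glands of cows 1 and 3 were the highest: they reached 11.41 and 9.44 for SOX9, 10.84 and 10.23 for SOX4, and 6.37 and 7.36 for ALDH1A3. SOX4 therefore had a mean difference of −0.92 with the probe set chosen by the study and −0.16 with the annotated one. The study also measured SOX4 by quantitative PCR in these cows. It reports a lower level in the 4× glands on day 21 and day 40, at a looser cutoff than it used for the arrays. On day 23 it reports similar levels in both glands. Which of the SOX4 probe sets the PCR follows more closely was not tested.

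**Figure D2:**
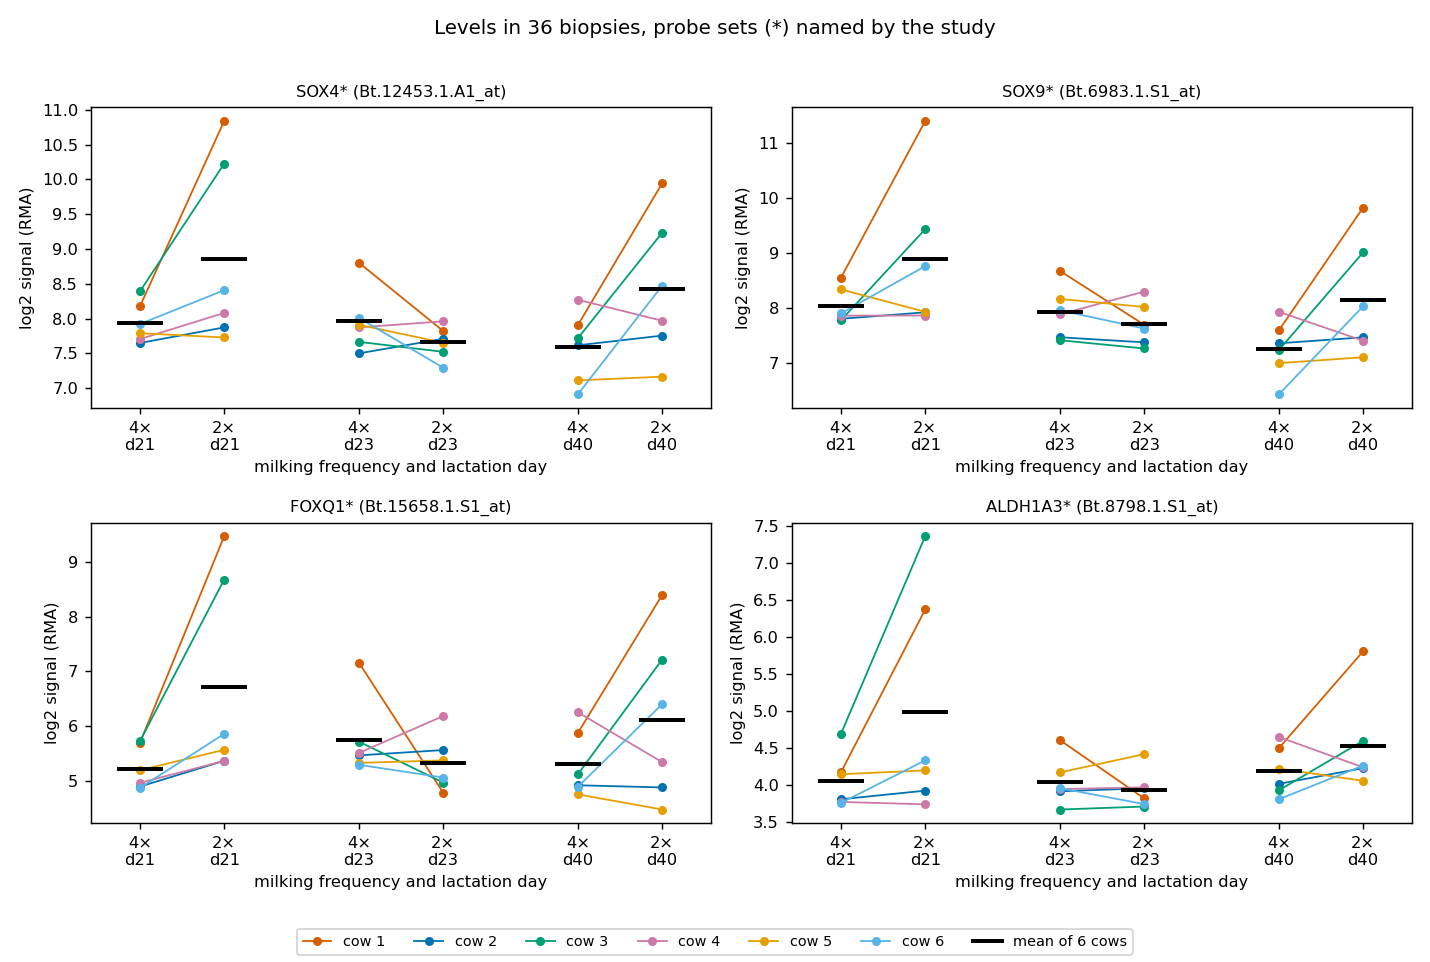
Levels of the 4 probe sets, marked *, that the study names for SOX4, SOX9, FOXQ1 and ALDH1A3 in 36 biopsies. The vertical axis is the log2 signal, the horizontal axis gives milking frequency and day, lines join the glands of 1 cow, and black bars are means of 6 cows. The 2× glands of cows 1 and 3 lie above the others on day 21 and, for SOX4, SOX9 and FOXQ1, again on day 40, when FOXQ1 had 8.40 and 7.22 there.

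On day 23, after both sides had returned to 2×, no member met an unadjusted p under 0.05 between the glands: 0 of 9 were lower and 0 were higher, where 1.26% of all probe sets were lower and 1.39% were higher. KIT probe set 1 had levels of 7.17, 7.39 and 7.67 (lowest, median and highest) in the 4× glands, against 7.10, 7.21 and 7.33 in the 2× glands, with a difference of 0.18 (95% interval −0.27 to 0.64). ELF3 had 6.30, 6.60 and 6.86, against 6.30, 6.66 and 6.86, with a difference of −0.07 (95% interval −0.36 to 0.22). For KIT probe set 1 and ELF3 the ranges of both glands were narrower than on day 21. ITGA2 probe set 1 had 3.73, 3.90 and 4.42 in the 4× glands, against 3.53, 3.71 and 4.11 in the 2× glands, with a difference of 0.18 (95% interval −0.28 to 0.64). ELF5 had 13.79, 13.89 and 13.93, against 13.79, 13.87 and 14.05, with a difference of −0.02 (95% interval −0.14 to 0.11). The intervals of KIT and ITGA2 still allow a higher level in the 4× gland of up to 0.64. The probe sets the study chose had mean differences of 0.42 for FOXQ1, 0.30 for SOX4, 0.21 for SOX9 and 0.11 for ALDH1A3.

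On day 40, 1 of 9 probe sets was lower in the 4× glands and 0 were higher, where 8.86% of all probe sets were lower and 11.6% were higher. This was KIT probe set 3, with 3.40, 3.82 and 4.09 (lowest, median and highest) in the 4× glands, against 4.05, 4.16 and 5.89 in the 2× glands. The ranges overlapped only narrowly. The difference was −0.64 (SE 0.31, 95% interval −1.29 to −0.0016; limma, adjusted p = 0.244), negative in 6 of 6 cows, as in 3.57% of all probe sets, and −0.38 without cow 1. Without cow 1 KIT probe set 2 passed as well, with a higher level in the 4× glands, without cow 2 ELF3 passed as well, with a lower one, and without cow 3, cow 4 or cow 6 no member passed. The probe set with the highest KIT level, probe set 1, had a difference of −0.06 (95% interval −0.51 to 0.40), with −1.08 in cow 1 and values between −0.02 and 0.32 in the other cows. Without cow 1 its difference was 0.15.

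The other annotated members of day 40 gave differences of either sign, all smaller in size than that of KIT probe set 3. KIT probe set 4 had 0.11, KIT probe set 2 had 0.08 and ITGA2 probe set 2 had 0.07. ELF3 had 6.41, 6.72 and 7.49 in the 4× glands, against 6.44, 6.79 and 7.88 in the 2× glands, with a difference of −0.19 (95% interval −0.48 to 0.10; limma, adjusted p = 0.413). ITGA2 probe set 1 had a difference of −0.25 (95% interval −0.71 to 0.22; limma, adjusted p = 0.508), and SOX4 had −0.17 (limma, adjusted p = 0.389). ELF5 had 13.76, 13.86 and 13.95 in the 4× glands, against 13.76, 13.86 and 13.92 in the 2× glands, a difference of 0.01 (95% interval −0.12 to 0.14). Cows 1 and 3 again had the highest 2× values of ELF3, 7.88 and 7.84. The probe sets the study chose had mean differences of −0.88 for SOX9, −0.83 for SOX4, −0.82 for FOXQ1 and −0.34 for ALDH1A3.

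**Figure D3:**
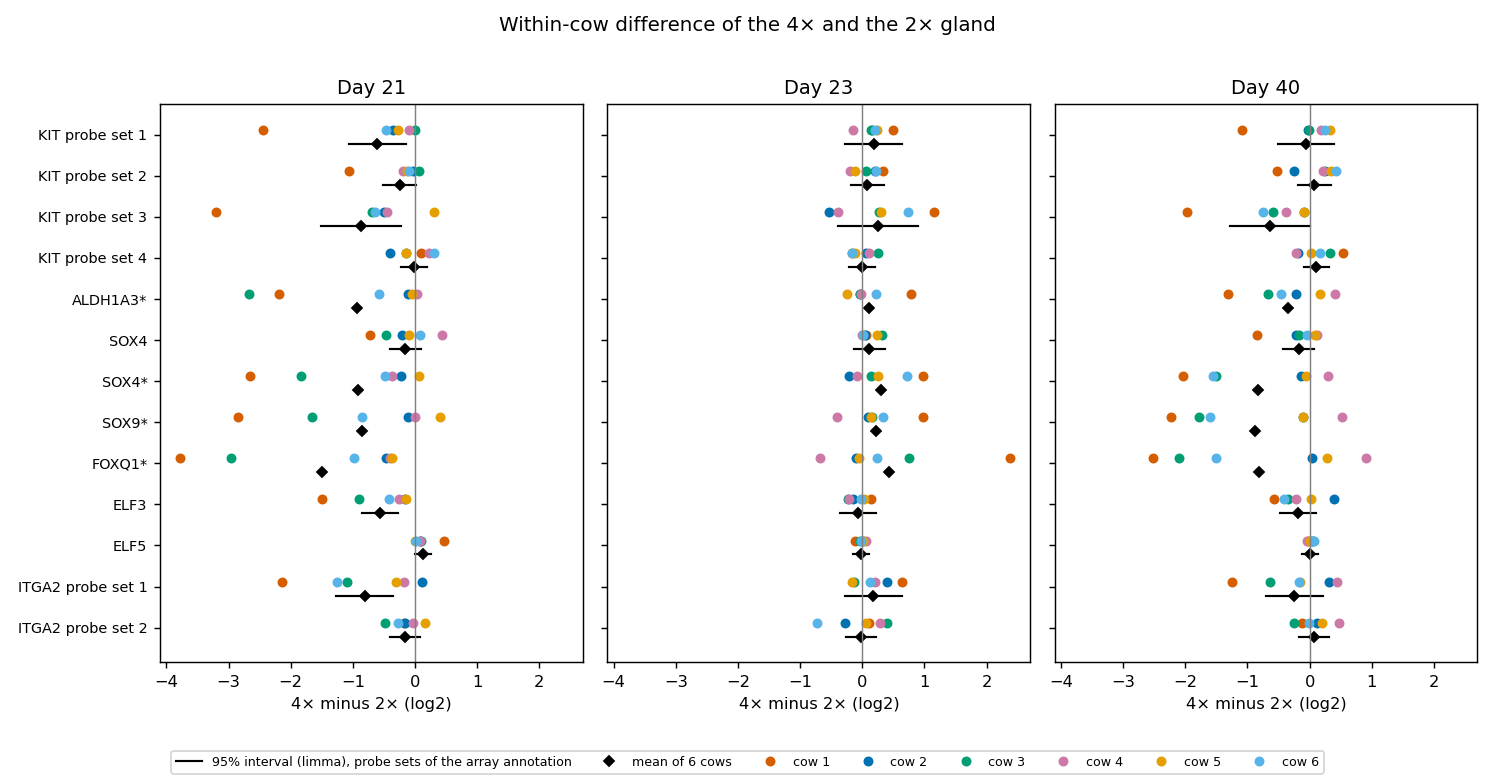
Differences of the 4× minus the 2× gland on days 21, 23 and 40 for 13 probe sets (log2, horizontal axis), with 1 point for each of 6 cows, the mean as a diamond and, for the probe sets of the array annotation, the 95% interval from limma. Probe sets marked * are those the study names. On day 21 cow 1 reached −3.78 for FOXQ1 and −2.45 for KIT probe set 1, and the means of day 23 lay closer to 0.

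The change of the difference between days was tested in the same fit, which did not pair the days of a cow. From day 21 to day 23 it was positive at an unadjusted p under 0.05 in 4 of 9 probe sets and negative in 0, where 5.65% of all probe sets were positive and 5.15% were negative. The smallest adjusted p was 0.392. For ITGA2 probe set 1 the difference of day 23 minus that of day 21 was 0.99 (SE 0.31; limma, adjusted p = 0.392), and for ELF3 it was 0.49 (SE 0.20; limma, adjusted p = 0.408), both positive in 6 of 6 cows. For KIT it was 0.79 (SE 0.31; limma, adjusted p = 0.405) with probe set 1 and 1.12 (SE 0.44; limma, adjusted p = 0.403) with probe set 3, which the study selected for this change. ITGA2 is also among the genes that the study lists for this change. Without cow 1 these 4 changes were 0.63 for ITGA2, 0.26 for ELF3, and 0.36 and 0.47 for the KIT probe sets. Then 3 of 9 probe sets were positive at the unadjusted threshold, where 2.64% of all genes were, with 1 probe set for each gene. Without only the day 21 pair of that cow, the KIT changes were 0.42 and 0.65. ELF5 went the other way, with −0.14 (SE 0.09; limma, adjusted p = 0.559). The comparisons of day 21, of day 23 and of their change share the same arrays and are not independent. From day 21 to day 40, 0 of 9 probe sets passed in either direction (2.71% of all probe sets positive, 3.3% negative), and the change was 0.55 (SE 0.31) for KIT probe set 1, 0.37 (SE 0.20) for ELF3, 0.56 (SE 0.31) for ITGA2 probe set 1 and −0.11 (SE 0.09) for ELF5. Without cow 1, 3 of 9 probe sets were positive for the change to day 40, where 2.35% of all probe sets were. When that change was taken within each cow, with its own estimate of the spread, 5 of 9 probe sets passed the unadjusted threshold. The share of all probe sets in that fit is not given here. The count of 0 thus depends on how the days of a cow were treated.

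Within the glands, the change from day 21 lay mainly on the 2× side. At the unadjusted threshold, 5 of 9 probe sets were lower in the 2× glands on day 23 than on day 21 and 0 were higher, where 8.65% of all probe sets were lower and 7.5% were higher. The difference of day 23 minus day 21 was −0.53 for ELF3 (limma, adjusted p = 0.168), lower in 6 of 6 cows, −0.76 for ITGA2 probe set 1 (limma, adjusted p = 0.168), −0.62 for KIT probe set 1 (limma, adjusted p = 0.191), −0.70 for KIT probe set 3 (limma, adjusted p = 0.267) and −0.35 for SOX4 (limma, adjusted p = 0.209). The smallest adjusted p of these was 0.168, and ELF5 had 0.06. Without cow 1 these changes were −0.33 for ELF3, −0.48 for ITGA2, −0.22 and −0.15 for the KIT probe sets 1 and 3, and −0.25 for SOX4. Then 3 of 9 were lower (ELF3, ITGA2 and KIT probe set 1), where 3.31% of all probe sets were, and the same 3 without cow 3. In the 4× glands 0 of 9 were lower or higher on day 23 than on day 21, where 1.98% of all probe sets were lower and 1.82% were higher. There the differences were 0.17 for KIT probe set 1, 0.23 for ITGA2 probe set 1, −0.04 for ELF3 and −0.08 for ELF5, the last negative in 6 of 6 cows. Day and gland position changed together in this comparison, on both sides of the udder.

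Day 40 and day 21 were both sampled from rear glands. In the 2× glands 2 of 9 probe sets were lower on day 40, where 3.73% of all probe sets were lower and 3.06% were higher: KIT probe set 1 had −0.49 (limma, adjusted p = 0.680), lower in 6 of 6 cows, and ITGA2 probe set 1 had −0.53 (limma, adjusted p = 0.643), lower in 5 of 6. Without cow 1 they were −0.30 and −0.44. Neither was left without cow 3 or cow 6, and 1 was left without cow 5. Over the array 0.00416% of probe sets passed an adjusted p of 0.05 in this comparison. In the 4× glands 0 of 9 passed, where 5.24% of all probe sets were lower and 3.44% were higher, and 0.0583% passed an adjusted p of 0.05. ELF3 had 0.26 and ELF5 had −0.09 there, and without cow 4, 1 of 9 passed (ELF3, higher).

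The order of the 6 group means put the 2× glands of day 21 first for KIT probe set 1 (7.83 ± 0.96, SD, n = 6), ITGA2 probe set 1 (4.54 ± 0.98), ELF3 (7.15 ± 0.75) and SOX4 (7.09 ± 0.46). For ELF5 the same glands came last (13.83 ± 0.13), and the 4× glands of day 21 came first (13.95 ± 0.05). No step between neighbours in these orders was larger than the larger SD of the groups it separated. That SD is the spread between cows and takes no account of the same cows having given all 6 groups. The orders are therefore a description, and the tests within cows are those given above. For no member did the ranges of the 4× and the 2× glands separate on any day, which happened in 0.0208%, 0.0167% and 0.137% of all probe sets on days 21, 23 and 40 with the 4× glands lower and in 0.0708%, 0.0208% and 0.316% with the 4× glands higher.

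The contrast of the progenitor and ductal members with ELF5 was tested as the difference of each probe set minus that of ELF5 in the same cow. ELF5 lay near the upper end of the scale and ITGA2 near its lower end, which limits what the size of such a contrast can show. On day 21, 6 of 8 probe sets were lower than ELF5 at an unadjusted p under 0.05 and 0 were higher. Because ELF5 itself had a positive difference, 20.8% of all probe sets were lower on this scale and 1.98% were higher, and the median was −0.53 for the 8 members and −0.11 over all. Relative to ELF5, ELF3 had −0.68 (SE 0.16; limma, adjusted p = 0.109), ITGA2 probe set 1 had −0.93 (limma, adjusted p = 0.109) and KIT probe set 1 had −0.73 (limma, adjusted p = 0.116). The smallest adjusted p was 0.109. ELF3 and KIT probe set 1 lay below ELF5 in 6 of 6 cows, and ITGA2 probe set 1 did so in 5. ELF5 itself was positive in 6 of 6 cows, and the share of all probe sets below it in every cow is not given. These counts of cows thus do not set the members apart from the array. SOX4 had −0.28 (limma, adjusted p = 0.230). Without cow 1 these contrasts were −0.43 for ELF3, −0.60 for ITGA2, −0.30 for KIT and −0.10 for SOX4, and 4 of 8 were lower (2 probe sets of KIT, ITGA2 and ELF3), where 7.3% of all probe sets were.

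On day 23, 0 of 8 probe sets differed from ELF5, where 0.558% of all probe sets were lower and 1.21% were higher. On day 40, 0 of 8 did (1 without cow 1 or cow 5), where 6.67% were lower and 8.61% were higher, and the lowest was KIT probe set 3 with −0.65 (limma, adjusted p = 0.337). Over the 18 differences, which come from 6 cows, Pearson's r with ELF5 was −0.815 for KIT probe set 1, −0.766 for ELF3 and −0.669 for ITGA2 probe set 1. Without the 3 differences of cow 1 it was −0.364, −0.342 and −0.252. For these 3 the relation rested in large part on cow 1. It moved less for others: r was −0.783 for KIT probe set 3 and −0.553 without cow 1, −0.506 and −0.488 for SOX4, and among the probe sets the study chose −0.720 and −0.687 for FOXQ1, −0.677 and −0.610 for SOX4, −0.669 and −0.566 for ALDH1A3, and −0.660 and −0.542 for SOX9.

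**Figure D4:**
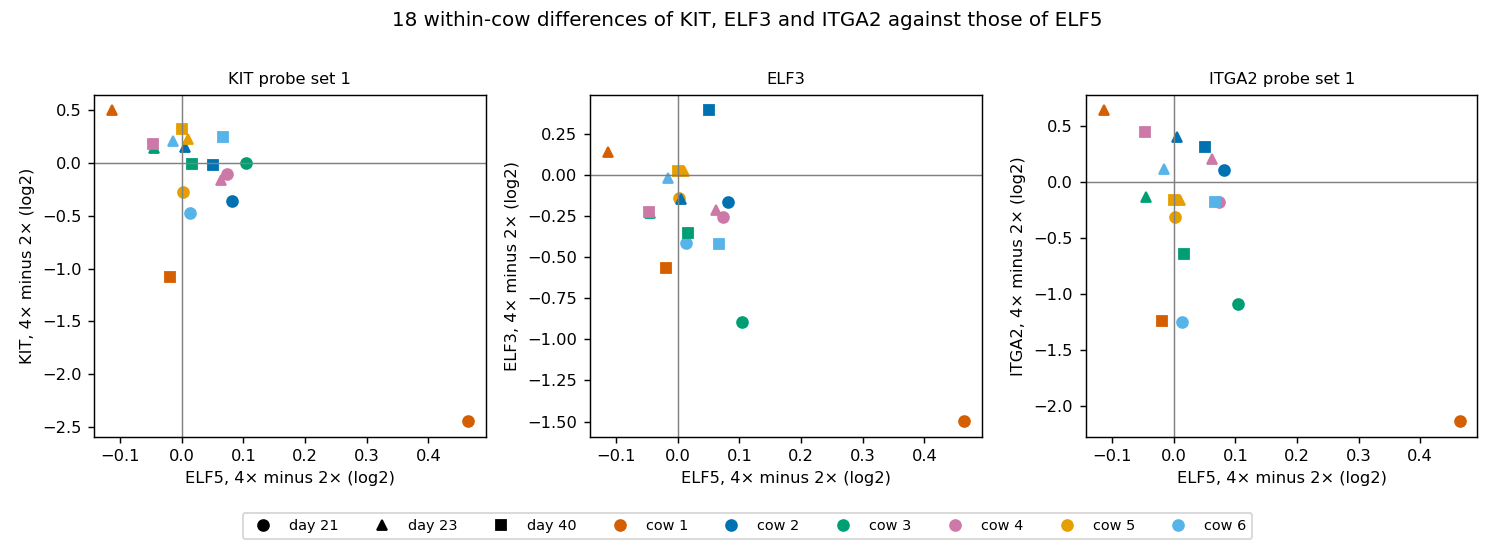
Differences of the 4× minus the 2× gland (log2) of KIT probe set 1, ELF3 and ITGA2 probe set 1 (vertical axes) against those of ELF5 (horizontal axis), with 18 points from 6 cows and the day given by the shape of the point. Cow 1 on day 21 lies alone at 0.46 for ELF5 and −2.45, −1.50 and −2.14 for KIT, ELF3 and ITGA2.

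The members also differed in how closely their differences ran together. Among the probe sets the study chose, r over the 18 differences was 0.975 for SOX4 with SOX9, 0.948 for SOX4 with FOXQ1 and 0.908 for ALDH1A3 with FOXQ1, and without cow 1 these were 0.943, 0.909 and 0.851. These probe sets had been selected for a shared change. ELF3 and ITGA2 probe set 1 had r = 0.852, and 0.662 without cow 1. KIT probe set 1 was close to ELF3 with all cows (r = 0.776) and not without cow 1 (r = 0.187). Probe sets of the same gene also disagreed, with r = 0.876 between KIT probe sets 1 and 3 (0.290 without cow 1), 0.742 between those of SOX4 (0.520) and 0.373 between those of ITGA2 (0.392).

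Of all other genes, those with differences most like KIT were ST3GAL5 (r = 0.956 over 18 differences, 0.829 without cow 1), JUN (0.942, 0.724) and DMGDH (0.933, 0.401). For ELF3 they were GPSM2 (0.921, 0.802), DAG1 (0.919, 0.821) and CLIC1 (0.915, 0.803), and for ITGA2 S100A13 (0.927, 0.869), ARSA (0.922, 0.816) and DAAM1 (0.914, 0.800). For SOX4 they were DDX41 (0.879, 0.775), PITPNB (0.871, 0.759) and B4GALT3 (0.866, 0.660). The genes most like ELF5 were SDC2 (0.941, 0.563), BTN1A1 (0.941, 0.539), which encodes a protein of the milk fat globule membrane, and LPO (0.937, 0.469), the milk enzyme lactoperoxidase. For ELF5 the likeness fell further without cow 1 than for ELF3, ITGA2 and SOX4. Among the probe sets the study chose, the most alike was TSC22D1 for SOX4 (0.979) and for SOX9 (0.966), ASRGL1 for FOXQ1 (0.973) and CD200 for ALDH1A3 (0.954). The study selected these probe sets of JUN and ASRGL1 on these samples for their change from day 21 to day 23. It also lists ST3GAL5 and CD200 among its genes that differed on day 21. Their likeness to the members is therefore not independent evidence.

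Related genes were read from lists with 1 probe set for each gene. Of 13 measured genes of luminal progenitor and ductal cells (of 20 listed), 7 met the unadjusted threshold with a lower level in the 4× glands of day 21 and 1 with a higher one, with a median difference of −0.29; over all 9155 genes, 9.61% were lower and 8.29% were higher, with a median of 0.01. The lower genes were CLDN4, a tight junction claudin, with −0.92 (SE 0.21; limma, adjusted p = 0.180), KRT7, a keratin of ductal epithelium, with −0.88 (SE 0.25; limma, adjusted p = 0.180), both lower in 6 of 6 cows, and LTF, KRT15, KRT18, EPCAM and KRT19. The study selected the probe sets of CLDN4, KRT7 and LTF on these samples, so at least 3 of these 7 are not independent evidence of a direction. It also lists KRT15 and KRT18 among its genes that differed on day 21. CD14 was higher, with 0.42. Without the day 21 pair of cow 1, 4 of 13 were lower and 0 were higher, where 2.96% of all genes were lower. The mean level of the list lay between 8.07 and 8.40 in the 4× glands of day 21 and between 8.26 and 9.37 in the 2× glands. On day 23, 0 of 13 passed, where 1.07% of all genes were lower and 1.41% were higher, and on day 40, 3 of 13 were lower and 0 were higher, where 9.51% and 8.9% of all genes were.

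Alveolar secretory genes gave small differences of either sign on day 21. Of 14 measured genes (of 17 listed), 0 were lower and 2 were higher, with a median of 0.07, beside the 8.29% of all genes that were higher. The prolactin receptor PRLR had −0.24 and ID2 had −0.10. FASN, the fatty acid synthase, had 0.20 (SE 0.09; limma, adjusted p = 0.269) and BTN1A1 had 0.20 (SE 0.09; limma, adjusted p = 0.305), both higher in 5 of 6 cows. Without the day 21 pair of cow 1, 0 of 14 were higher, and the median was 0.0015. Of 10 measured genes of retinoic acid handling and the KIT ligand (of 16 listed), 1 was lower and 2 were higher, with a median of 0.01, beside 9.61% lower and 8.29% higher over all genes. RDH10, which makes retinaldehyde, had 0.31 (limma, adjusted p = 0.182) in 6 of 6 cows, KITLG, the ligand of KIT, had 0.24 (limma, adjusted p = 0.288), and RXRA, a retinoid receptor, had −0.18 (limma, adjusted p = 0.272). Without the day 21 pair of cow 1, 0 of these 10 passed.

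Markers of other cells that the biopsies could hold were read in the same way, beside the same 9.61% of all genes that were lower. Basal and myoepithelial cells also express some integrins and SOX genes: of 9 measured markers (of 10 listed), 1 was lower on day 21, the keratin KRT5 with −0.48 (limma, adjusted p = 0.221), and MYH11 had −0.24. The mean level of this list lay between 8.65 and 9.40 in the 4× glands of day 21 and between 8.96 and 9.63 in the 2× glands. Of 7 measured leukocyte markers (of 9 listed), 2 were lower, CSF1R with −0.39 (limma, adjusted p = 0.182) and CD2 with −0.23 (limma, adjusted p = 0.280), with a mean level of 6.34 to 6.58 in the 4× glands and 6.44 to 6.79 in the 2× glands. The study selected CSF1R on these samples with another probe set, so its direction is not independent evidence. Without the day 21 pair of cow 1, 0 of 9 basal and 1 of 7 leukocyte markers were lower. Their part in the lower levels of KIT, ITGA2 and ELF3 was not tested. KIT is also a receptor of mast cells, whose 2 measured markers (of 6 listed) had mean levels of 4.84 for FCER1A and 3.51 for HDC, both dim, and differences of 0.06 and 0.04. The study lists FCER1A among its genes that differed on day 21, and also GATA2, a listed marker that was not measured here. It names no probe set or direction for them there, so these small differences do not show that mast cell markers stayed the same.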

How the data were processed

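Mammary RNA of 36 biopsies (6 cows, 4× and 2× glands, days 21, 23 and 40) was measured on 1 array each. The authors corrected, normalized and summarized the probe signals with the Robust Multichip Average, and the deposited log2 values were used as they were; the version is not given in the sources used here. Of 24128 probe sets, 112 controls were left out. Symbols came from the array annotation (13292 probe sets with 1 symbol, 86 with several, 10638 with none).

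Groups and cow numbers came from the labels, whose descriptions name the cow of each sample. Differential expression was the 4× minus the 2× value within a cow, fitted with limma 3.58.1 in R 4.3.3 (lmFit, eBayes) on 18 differences with a mean for each day; p-values were two-sided and adjusted over 24016 probe sets by Benjamini and Hochberg. Changes between days within glands were fitted on 36 arrays with cow as a replicate block. Pairing was checked: the correlation of paired arrays, less the group means, was positive in 18 of 18 pairs (0.242 to 0.665). The contrast with ELF5 subtracted its difference in the same cow. Each cow is a separate animal. For the 4× minus 2× differences, p-values measure the spread of 18 within-cow differences pooled over the days. These were treated as independent although each cow gave several. For changes within glands, p-values measure the spread left after the cow means are removed.

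All probe sets of the 8 genes were reported, the one with the highest mean in full; of each of 10 lists (79 of 111 genes measured), the 2 genes with the smallest p on day 21; and for each gene the 3 genes with the highest r. Other list genes were named after their values were seen. The members and lists were chosen with earlier results of these data known. On simulated differences of day 21 over 24016 probe sets, the fit recovered 78% of added changes of 0.5, 100% of changes of 1 and 98% of changes of −1 at an adjusted p under 0.05. The changes were added to randomly drawn probe sets with normal noise, in which no cow stood apart as cow 1 did. These shares are averages over the array and do not give the power for the members. Alternatives were no replicate block, cow as a fixed block, the spread of each day alone, no moderation, trend and robust moderation, dim probe sets (mean under 5) left out, scaling to 5 reference genes, centring, a single probe set kept for every gene, and cows left out in turn; leaving out the day 21 pair of cow 1 was added after seeing the data. Figures used matplotlib 3.10.9 under Python 3.11.15, with tables from pandas 2.3.3 and numpy 2.4.6.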

Additional observations from a re-analysis of the deposited data

Results flagged for a closer look

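In groups of 6 values, 18 of 117 groups held a highest or lowest value far from the rest (a gap of over 0.625 of the range), where chance gives about 1 in 20. Cow 1 gave 15 of the 18. In the differences of the 4× minus the 2× gland its values stood apart for KIT on day 21, at −2.45 (probe set 1), −1.06 (probe set 2) and −3.21 (probe set 3), and on day 40, at −1.08 (probe set 1) and −1.97 (probe set 3). The same cow stood apart for SOX4 on day 40 at −0.84 and for ELF5 on day 21 at 0.46.

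Among the levels, the 2× gland of cow 1 stood apart on day 21 for KIT at 9.75 (probe set 1), 6.38 (probe set 2) and 7.22 (probe set 3), and for ELF5 at 13.57, the lowest value. On day 40 its 2× gland did so for KIT at 8.30 (probe set 1) and 5.89 (probe set 3) and for ALDH1A3 at 5.81, and on day 23 its 4× gland did so for FOXQ1 at 7.16. The other 3 values were the 4× gland of cow 3 on day 21 for KIT probe set 2 at 5.73, the 4× gland of cow 2 on day 23 for SOX4 at 6.65, and the 2× gland of cow 5 on day 23 for ALDH1A3 at 4.42.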

How the results depend on the processing

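No member passed an adjusted p of 0.05 under any alternative run. Of 975 values of single probe sets under the alternatives, 890 kept their direction and their side of the threshold, 38 no longer passed, 19 newly passed and 28 changed sign. Counts are of members at an unadjusted p under 0.05. The share of all probe sets also moved between the alternatives and is not given beside these counts. On day 21, 9.61% of all genes were lower with all cows and 2.96% without the day 21 pair of cow 1. The counts below therefore show how the member calls moved, and not how far they differ from the array. The main limits were cow 1, the 6 cows, the dim KIT and ITGA2 probe sets, and the fore glands of day 23.

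On day 21 the count of 4 was 2 with dim probe sets left out, 2 without the day 21 pair of cow 1, and 4 to 5 with single cows left out. On day 40 the count of 1 was 0 with no replicate block, without moderation, with trend and robust moderation, with dim probe sets left out and with 1 probe set for each gene, and 0 to 2 with single cows left out. For the change from day 21 to day 23 the count of 4 was 2 with dim probe sets left out, and 3 to 5 with single cows left out. For the change to day 40 the count of 0 was 5 with the spread of each day alone, and 0 to 3 with single cows left out. With the spread of each day alone, a change between days is taken within each cow, which the main fit does not do. With no replicate block for cow, the count of 5 in the 2× glands of day 23 was 3, and the count of 2 on day 40 was 0; with dim probe sets left out these were 3 and 1, and with single cows left out 3 to 5 and 0 to 2. In the 4× glands of day 40 leaving out single cows gave 0 to 1. Relative to ELF5, the count of 6 on day 21 was 3 with dim probe sets left out, 3 with 1 probe set for each gene and 4 to 7 with single cows left out, and that of day 40 was 0 to 1. The mean of several ELF5 probe sets was not run, as ELF5 has 1.

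Some differences near 0 changed sign. With scaling to reference genes, KIT probe set 4 had 0.015 on day 21 and −0.045 for the change to day 23, and ELF5 had −0.012 on day 40 (−0.022 with centring). Without the day 21 pair of cow 1 the change to day 40 was −0.25 for KIT probe set 3 and −0.26 for the SOX4 probe set of the study. With single cows left out, KIT probe set 4 ranged from −0.075 to 0.066 on day 21, −0.057 to 0.028 on day 23 and −0.084 to 0.10 for the change to day 23. KIT probe set 1 ranged from −0.14 to 0.15 on day 40. ITGA2 probe set 2 ranged from −0.11 to 0.11 on day 23, −0.012 to 0.13 on day 40 and −0.013 to 0.26 for the change to day 23. ALDH1A3 ranged from −0.027 to 0.18 and ELF5 from −0.032 to 0.0036 on day 23. The change to day 40 ranged from −0.076 to 0.046 for SOX4, −0.031 to 0.32 for the SOX4 probe set of the study and −0.17 to 0.11 for SOX9. The cause of these moves was not tested.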

Other observations

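Over all genes, 9.61% were lower and 8.29% were higher on day 21, and in each remaining list 1 gene passed. Hormone-sensing luminal genes had 1 of 5 measured genes (of 10 listed) lower on day 21 and 0 higher, with a median of 0.04: AREG, a ligand of the epidermal growth factor receptor, had −0.34 (limma, adjusted p = 0.264), and MYB had −0.61 (limma, adjusted p = 0.347). Of 7 measured integrin partners and collagens (of 10 listed), 1 was lower, the integrin chain ITGAV with −0.29 (limma, adjusted p = 0.277), and the collagen COL1A2 had −0.21. Of 5 endothelial markers, 1 was higher, the angiopoietin receptor TEK with 0.31 (limma, adjusted p = 0.286), and CDH5 had 0.17. Of 7 measured fibroblast and adipocyte markers (of 8 listed), 1 was higher, the fatty acid binding protein FABP4 with 0.31 (limma, adjusted p = 0.181), and FBLN1 had −0.23. The study lists FABP4 among its genes that differed on day 21, so its call is not independent evidence. Without the day 21 pair of cow 1, 0 genes of the first 3 of these lists passed, and 1 of the fibroblast and adipocyte markers was higher.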
